A study of Mus musculus with 8 samples.

Results

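The sites described here were PU.1 chromatin immunoprecipitation (ChIP-seq) sites that were called in untreated cells and in no other library of a 7-library time course. They were chosen by the calls themselves. The summits of the 7 deposited lists, each summit being the single base where a called peak was highest, were joined into merged sites wherever neighbouring summits lay within 100 bp, and the merged sites holding a summit of the day 0 list alone were kept. Of 246675 merged sites, 3217 (1.3%) met this rule, which were 40.0% (95% interval 38.9 to 41.1) of the 8043 merged sites with a day 0 summit. The other 4826 day 0 sites were also called in at least 1 other list and are the comparison used most below. Because the rule used the calls, the number of sites, their low scores and their distances to other lists are descriptions and carry no test. Positions relative to genes and motif shares can depend on where the other lists' summits lie, so they are descriptions too.

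The libraries came from AML246, a line of mouse acute myeloid leukaemia cells grown with interleukin-3, in which the course followed PU.1 binding through restoration and knockdown of PU.1 with doxycycline (Dox, 0.1 ug/mL) added on day 0 and withdrawn on day 12. Viable cells were sorted before immunoprecipitation. By title there were 4 restoration libraries (Day 0 untreated and Day 4, Day 8 and Day 12 of Dox, all total viable cells) and 3 knockdown libraries titled Day 12- 4, Day 12- 8 and Day 12- 12. The treatment labels of the knockdown libraries named other states: the library titled Day 12- 4 was labelled 12 days Dox with a Cd11b-high sort, the one titled Day 12- 8 was labelled 4 days off Dox and the one titled Day 12- 12 was labelled 8 days off Dox, the last 2 from total viable cells. They are called by title here, and a sample labelled 12 days off Dox was not analysed here. The genotype of the line and the construct that responds to Dox are not described in the labels. Each state was 1 library from 1 line, so differences between libraries have no replicate error to stand against, and p-values are not used. The lists held 8043 (Day 0), 57424 (Day 4), 33962 (Day 8), 86271 (Day 12), 9868 (Day 12- 4), 21377 (Day 12- 8) and 148415 (Day 12- 12) summits. Sequencing depth was unknown, and list length, depth and PU.1 level cannot be told apart, so a missing call is not read as missing binding.

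PU.1, encoded by Spi1, is a transcription factor of the ETS family that directs myeloid and B-cell development, and its loss or reduction blocks myeloid maturation in acute myeloid leukaemia. ETS proteins bind DNA at a core of the letters GGAA. PU.1 prefers purine-rich bases before that core, whereas most other ETS members prefer the letters CC before it, a form found in many promoters of broadly expressed genes. The GC box, bound by SP and KLF factors, and the CCAAT box, bound by NF-Y, are also common near gene starts, and many mammalian starts lie in CpG islands, stretches rich in G, C and CpG dinucleotides.

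The promoter sequences at 8 annotated starts are shown because the rule did not directly use annotated starts or the letters at them. It did use the other lists' summits, so the sequences are a description only. They are the 250 bases before the start (RefSeq, GRCm38.p6, with the same coordinates as mm10) for the 6 highest-scoring day 0-only sites that lay there, followed by those of the next-highest such sites with no summit of another list within 2 kb. Odr4 (chr1:150393081-150393330, minus strand), Clk3 (chr9:57765115-57765364, minus strand), Hfm1 (chr5:106925891-106926140, minus strand), Rasgef1b (chr5:99252928-99253177, minus strand) and Sertad4 (chr1:192855753-192856002, minus strand) are read from the strand of their gene. Sgk1 (chr10:21994416-21994665), Sf3a2 (chr10:80798485-80798734) and Tmem98 (chr11:80810116-80810365) are on the plus strand. Each runs 5′ to 3′ and ends at the base before the start. Capitals mark matches, on either strand, to the GC box (GGGCGG), the general ETS site (CCGGAAG) and the PU.1-type ETS site (GAGGAAG).
Odr4: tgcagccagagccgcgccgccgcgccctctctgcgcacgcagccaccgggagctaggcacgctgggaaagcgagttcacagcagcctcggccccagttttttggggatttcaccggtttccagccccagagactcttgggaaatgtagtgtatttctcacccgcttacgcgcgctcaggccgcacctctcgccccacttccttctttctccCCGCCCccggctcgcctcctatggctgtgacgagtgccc
Sgk1: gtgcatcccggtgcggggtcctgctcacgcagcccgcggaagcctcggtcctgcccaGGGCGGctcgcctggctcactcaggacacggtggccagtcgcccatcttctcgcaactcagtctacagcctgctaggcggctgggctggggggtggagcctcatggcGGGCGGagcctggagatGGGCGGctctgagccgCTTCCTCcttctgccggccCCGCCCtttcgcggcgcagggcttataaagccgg
Clk3: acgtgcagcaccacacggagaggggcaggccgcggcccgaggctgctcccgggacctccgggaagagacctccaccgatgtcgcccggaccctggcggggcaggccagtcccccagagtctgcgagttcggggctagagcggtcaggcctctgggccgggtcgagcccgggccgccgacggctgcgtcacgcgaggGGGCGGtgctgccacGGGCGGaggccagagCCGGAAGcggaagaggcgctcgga
Hfm1: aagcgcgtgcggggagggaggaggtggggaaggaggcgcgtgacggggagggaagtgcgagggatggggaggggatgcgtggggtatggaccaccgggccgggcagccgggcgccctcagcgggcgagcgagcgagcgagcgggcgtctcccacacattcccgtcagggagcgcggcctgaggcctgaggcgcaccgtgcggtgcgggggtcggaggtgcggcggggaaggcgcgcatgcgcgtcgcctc
Sf3a2: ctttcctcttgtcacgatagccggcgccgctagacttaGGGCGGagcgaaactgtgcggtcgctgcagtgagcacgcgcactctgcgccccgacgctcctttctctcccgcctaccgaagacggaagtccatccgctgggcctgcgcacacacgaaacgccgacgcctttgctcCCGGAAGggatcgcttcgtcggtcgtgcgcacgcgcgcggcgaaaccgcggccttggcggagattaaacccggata
Rasgef1b: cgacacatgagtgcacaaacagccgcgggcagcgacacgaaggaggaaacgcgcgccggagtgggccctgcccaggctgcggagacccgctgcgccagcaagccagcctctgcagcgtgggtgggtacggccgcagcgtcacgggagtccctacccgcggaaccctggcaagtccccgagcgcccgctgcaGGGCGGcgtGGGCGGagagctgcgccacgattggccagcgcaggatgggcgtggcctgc
Tmem98: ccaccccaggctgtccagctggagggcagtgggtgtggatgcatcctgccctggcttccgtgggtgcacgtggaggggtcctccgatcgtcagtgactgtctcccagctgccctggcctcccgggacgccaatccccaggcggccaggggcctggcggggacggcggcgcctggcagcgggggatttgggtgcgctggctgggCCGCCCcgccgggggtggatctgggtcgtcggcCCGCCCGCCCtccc
Sertad4: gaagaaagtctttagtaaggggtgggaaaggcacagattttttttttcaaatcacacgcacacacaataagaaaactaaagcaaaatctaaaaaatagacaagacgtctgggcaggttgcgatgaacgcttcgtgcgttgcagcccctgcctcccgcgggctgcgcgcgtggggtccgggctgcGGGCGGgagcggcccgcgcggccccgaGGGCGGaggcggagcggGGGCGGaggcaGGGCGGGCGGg

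In these 8 stretches GC boxes were the most frequent capitals. Sertad4 held 5, Sgk1 4, Tmem98 3, Clk3 and Rasgef1b 2 each, Odr4 and Sf3a2 1 each, and Hfm1 none. A PU.1-type site was found only in Sgk1 and a general ETS site only in Clk3 and Sf3a2. GC content ran from 61.2% in Sertad4 to 75.6% in Hfm1. The day 0 summit lay 202 bases before the Odr4 start, 178 before that of Sgk1, 187 before Clk3, 87 before Hfm1, 7 before Sf3a2, 64 before Rasgef1b, 9 before Tmem98 and 28 before Sertad4. A match is a description of the letters and not a bound site.

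The day 0-only sites were weak calls by score. The deposited score, read as −log10 of the peak's q-value, had a median of 7.66 (quartiles 5.49 and 10.5, range 1.46 to 146), against 11.6 for the 4826 other day 0 sites (quartiles 7.45 and 20.2, highest 490). A score of at least 20 was reached by 60 (1.87%) of the day 0-only sites and by 25.4% of the others. Ranked by score, the strongest 100 day 0 sites held 1 day 0-only site, the strongest 500 held 10, the strongest 1000 held 27 and the strongest 2000 held 218 (10.9%). The day 0-only sites thus made up little of the top of the list and more of its lower part. These scores belong to 1 library and were the authors' own values, used to rank sites within that list.

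**Figure D1:**
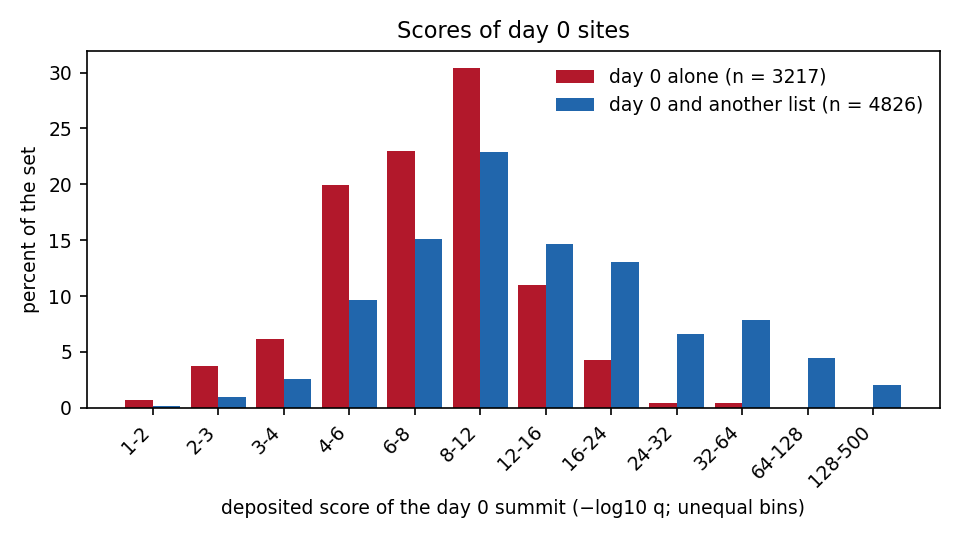
Percent of day 0 sites in each range of the deposited score (x axis, −log10 q, ranges of unequal width), for sites called at day 0 alone (red) and sites called at day 0 and in another list (blue). The largest share of both sets lay between 8 and 12, and 25.4% of the blue but 1.87% of the red sites had scores of at least 20.

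Of the day 0-only sites, 3203 lay on chromosomes 1 to 19, X and Y and are used from here on, and 14 lay on other sequences. Most of them were at genes. No more than 1 kb from the nearer end of a protein-coding gene lay 1891 (59.0%, interval 57.3 to 60.7), close to the 63.7% (62.3 to 65.0) of the other day 0 sites. Sites called alone in another list lay at gene ends far less often: 7.15% for Day 4, 12.0% for Day 8, 15.7% for Day 12, 16.5% for Day 12- 4, 33.5% for Day 12- 8 and 7.09% for Day 12- 12. Over all merged sites the share was 13.3%. Intervals are exact binomial ones and cover counting error only.

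**Figure D2:**
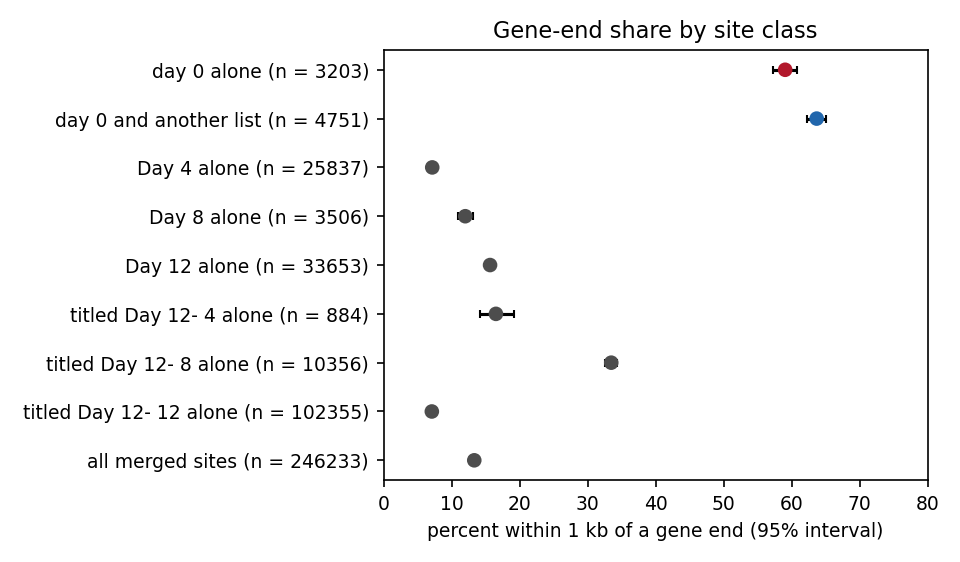
Percent of sites no more than 1 kb from a protein-coding gene's end, with exact 95% intervals, for sites called at day 0 alone (red), at day 0 and elsewhere (blue), alone in each other list and for all merged sites (grey). The red and blue points lie at 59.0% and 63.7%, and the grey points lie between 7.09% and 33.5%.

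The gene-end share of the day 0-only sites changed little with their score. It was 60.3% for scores under 3, 61.6% from 3 to 5, 58.5% from 5 to 10, 58.7% from 10 to 20 and 55.2% (41.5 to 68.3) for the 58 sites at 20 or more. For the other day 0 sites the same ranges gave 69.8%, 57.8%, 61.0%, 63.8% and 68.3% (65.6 to 70.9), so the intervals of both sets overlapped in each of the 5 ranges and the shares stood furthest apart at scores of at least 20. Inside a protein-coding gene lay 84.8% of the day 0-only sites. Over 1 kb from any end and inside a gene lay 31.2%, and 7.06% lay more than 10 kb outside any gene.

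Relative to annotated starts, the day 0-only summits lay mostly downstream. Annotated starts on chromosome 18 were not used here, and the starts used belonged to 17468 of the 21883 protein-coding genes. Stretches of other chromosomes also lacked starts. The site at Tcea1, for example, lay 319 bp from a gene end but 13287889 bp from the nearest start used. Sites at such genes are counted as far from a start. On the chromosomes other than 18, 1682 of 3116 sites (54.0%) were within 1 kb of an annotated start. Their median position was +183.5 bp (quartiles 27.25 and 347), and 79.3% (77.3 to 81.2) were downstream. The other day 0 sites had a median of +82 bp with 70.4% (68.7 to 72.1) downstream, and all sites of the Day 12 list a median of +17 bp with 54.9%. The rule bears on these positions. It leaves out day 0 summits within 100 bp of another list's summit, and Day 12 summits are densest at starts. The differences are thus a description only. For scores from 5 to 10 the medians were +189 bp for day 0-only sites and +132 bp for the others. The sites called alone in the list titled Day 12- 8 were closest of the single-list classes in this measure, with a median of +158.5 bp and 76.4% downstream.

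**Figure D3:**
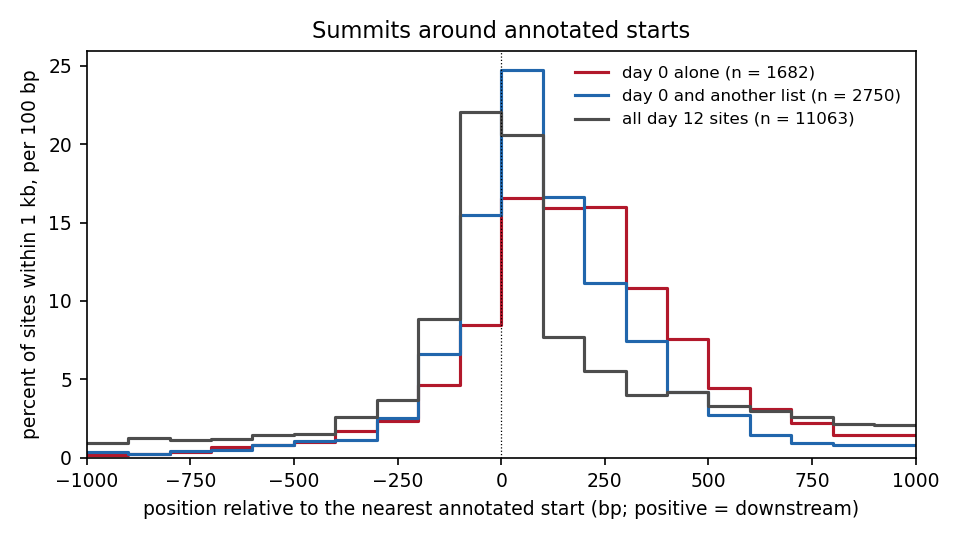
Percent of the sites within 1 kb of an annotated start that fell in each 100 bp step (x axis, bp from the start, positive downstream), for day 0-only sites (red), other day 0 sites (blue) and all Day 12 sites (grey). Day 12 sites peak at the start with 22.1% just before it, and the red line stays near 16% from 0 to 300 bp downstream.

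Where a Day 12 summit lay within 500 bp of a day 0-only summit near a start (577 sites), the day 0-only summit had a median position of +210 bp and the Day 12 summit of +1 bp. The rule bears on these values, since it leaves out day 0 summits within 100 bp of a Day 12 summit and Day 12 summits are densest at starts, so they are a description only. The Day 12 summit was the nearer to the start in 52.3% (48.2 to 56.5) of these pairs. The same pairs with Day 8 gave +200 bp and 0 bp over 363 sites, and Day 8 was nearer in 62.0% (56.8 to 67.0). Against the list titled Day 12- 8 the medians were +195 bp and +130 bp over 871 sites, and the day 0-only summit and the other summit were nearer about equally often (49.3%, 45.9 to 52.6, for the other).

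The starts near these sites were rich in GC and CpG. A day 0-only site lay within 1 kb of 1910 of 21237 annotated starts (8.99%), belonging to 1680 genes. The 300-base windows at these starts, from 250 before to 50 after the start, had a median GC content of 68.0% and a median ratio of observed to expected CpG of 0.844, against 56.3% and 0.567 over all starts. Starts with another day 0 site gave 66.7% and 0.853, so both kinds of day 0 site shared this composition. Starts with a Day 12 site gave 60.7% and 0.751. Of the starts with a day 0-only site 65.8% were among the 5369 starts with the highest GC content.

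ETS motifs were less frequent at these starts than at other day 0 starts. The general ETS site CCGGAAG was found, on either strand, in 10.4% (9.08 to 11.9) of windows with a day 0-only site within 1 kb, in 19.9% (18.6 to 21.3) of those with another day 0 site and in 11.6% of all windows. The PU.1-type site GAGGAAG was found in 11.9% (10.5 to 13.4), 16.5% (15.2 to 17.8) and 13.6%. Both motifs end in GGAAG and cannot match at the same bases. Lower shares were not particular to day 0: the general ETS site stood in 12.8% of windows near a site called alone in Day 12 (all Day 12 sites 18.9%), 12.9% for Day 12- 8 alone (19.8%) and 8.05% for Day 12- 12 alone (18.3%). For sites called alone in Day 4, Day 8 and Day 12- 4 it stood in 17.0% (all sites 21.9%), 19.4% (23.6%) and 20.3% (28.1%). The PU.1-type site stood in 10.6% for Day 12 alone and 11.2% for Day 12- 8 alone. The GC box, in contrast, was found in 79.0% (77.1 to 80.8) of windows with a day 0-only site and 77.9% (76.4 to 79.3) of those with another day 0 site, against 46.2% of all windows.

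A start can lie near both kinds of day 0 site, and among the 1759 starts with a day 0-only site and no other day 0 site the general ETS site stood in 9.95%. The lower share of the general ETS site was also seen at like scores and like GC content, and that of the PU.1-type site at like GC content only. For scores from 5 to 10 the general ETS site stood in 10.1% of day 0-only windows and 17.1% of the others, and the PU.1-type site in 11.6% and 11.9%. Among the starts of highest GC content the general ETS site stood in 10.7% (9.01 to 12.5) of day 0-only windows, 18.98% (17.3 to 20.8) of other day 0 windows and 16.1% of all windows. The PU.1-type site there stood in 11.4% (9.67 to 13.3), 16.6% (15.0 to 18.3) and 12.5%. Where the summit itself lay inside the window, with scores not matched, 6.49% of 416 day 0-only windows against 25.4% of 1175 others held a general ETS site, and 9.38% against 24.9% a PU.1-type site. The 370 starts near a day 0-only site with no other list's summit within 2 kb held a general ETS site in 4.86% (2.91 to 7.58).

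Of the other promoter motifs, the CCAAT, E-box and CRE letters had overlapping intervals in both day 0 sets. The CCAAT box, searched as CCAAT, was in 31.0% of day 0-only windows, 30.9% of other day 0 windows and 38.2% of all. The E-box CACGTG, bound by USF and MYC-type factors, was in 11.0%, 10.4% and 7.84%. The CRE, the site of CREB-type factors, searched as TGACGTCA, was in 2.46%, 2.83% and 2.24%, and the NRF1 site GCGCATGC was in 3.93% (3.10 to 4.90), 5.72% (4.95 to 6.56) and 3.51%. All were searched on both strands.

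**Figure D4:**
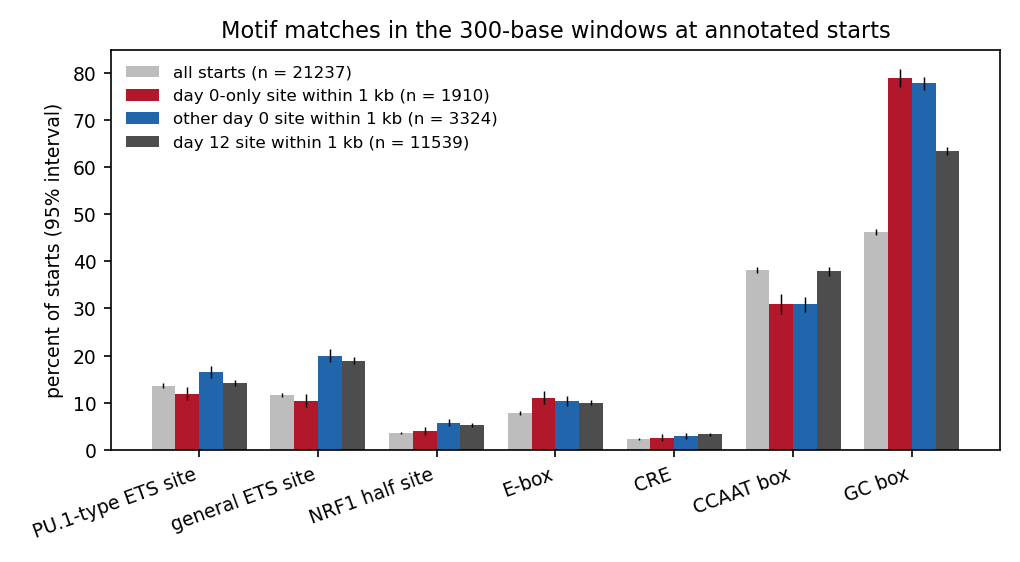
Percent of annotated starts whose 300-base window held each motif, with exact 95% intervals, for all starts (light grey), starts within 1 kb of a day 0-only site (red), of another day 0 site (blue) and of a Day 12 site (dark grey). The GC box stands at 79.0% and 77.9% in the day 0 sets, and the general ETS site at 10.4% in red and 19.9% in blue.

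Starts with a day 0-only site were not without sites in the other libraries. A Day 12 site lay within 1 kb of 52.0% (49.8 to 54.3) of them, against 54.3% of all starts and 88.0% of starts with another day 0 site. For the list titled Day 12- 8 the shares were 61.7%, 43.7% and 96.6%. Day 8 sites stood near 31.5% of them (all starts 32.1%), Day 4 sites near 17.8% (26.8%), Day 12- 12 sites near 27.7% (43.2%) and Day 12- 4 sites near 10.8% (14.9%). Some site of the 6 lists stood near 74.6% of them, against 67.8% of all starts. The rule bears on these shares. The other day 0 sites were by definition also called in another list, which raises their shares of 88.0% and 96.6%. The day 0-only sites were chosen to have no other list's summit within 100 bp, which bears on their shares in the other direction. The differences between the day 0 sets are thus a description only.

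By distance, the nearest Day 12 summit lay at a median of 2632 bp from a day 0-only summit (quartiles 484 and 14787). Within 200 bp lay 8.68%, within 500 bp 25.4%, within 1 kb 37.5% and within 2 kb 47.1% (45.3 to 48.8). Distances under about 100 bp were removed by the rule. At gene ends the median was 1439 bp, and over 1 kb from any end it was 4131 bp. The list titled Day 12- 8 held fewer summits than Day 12 (21377 against 86271) but was nearer: its median was 808 bp, with 43.2% within 500 bp and 56.3% within 2 kb. The medians were 9969 bp for Day 4, 14515 bp for Day 8, 61214 bp for Day 12- 4 and 4442 bp for Day 12- 12. The nearest summit of any list belonged to Day 12- 8 for 1449 sites (45.2%), to Day 12- 12 for 630 and to Day 12 for 620. Among day 0 sites called in exactly 1 other list, that list was Day 12- 8 for 1222 of 1464.

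**Figure D5:**
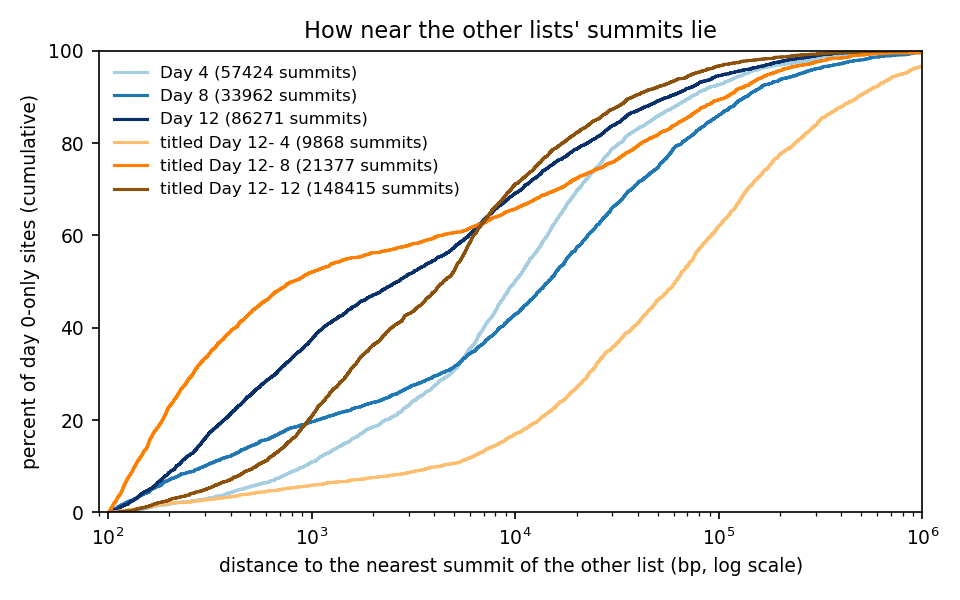
Cumulative percent of the day 0-only sites (y axis) whose nearest summit in each other list lay within the distance on the x axis (bp, log scale), with the length of each list in the key. The line for Day 12- 8 is highest up to several kb, reaching 52.0% at 1 kb, where Day 12 stands at 37.5%.

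Many day 0-only sites had sites of other lists nearby. The nearest summit of any of the 6 lists was at a median of 471 bp, and 74.5% of sites had one within 2 kb. Together the 6 lists held 357317 summits, and these values were not measured for other positions. Some site of the 6 lists stood within 1 kb of 74.6% of starts with a day 0-only site and of 67.8% of all starts. A site of another list was thus also common near starts in general, and this does not cover the day 0-only sites away from starts. At the threshold, 554 sites had their nearest other summit over 100 and up to 150 bp away (median score 7.77, 68.8% at gene ends), and 1037 day 0 sites just inside had it 51 to 100 bp away (8.87, 67.4%). Day 0 sites shared with another list had a median offset of 20 bp (quartiles 5 and 46). All 6 lists had a summit within 500 bp of 97 day 0-only sites. For 87 of these 97, the other summits were all on the same side of the day 0 summit. The median span of the other summits over the 97 sites was 74 bp. The rule bears on this, since it leaves no other summit within 100 bp of the day 0 summit. Closely spaced summits of other lists can then only stand on the same side, so this is a description only.

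The highest-scoring day 0-only sites were mainly of this neighbouring kind. Of the 25 highest, 20 had another summit within 250 bp and 16 had summits of all 6 lists within 500 bp. In 15 of these 16 the 6 lists' summits lay on 1 side, which the rule favours as above. The median span over the 16 was 39.5 bp, and none of the 25 had another day 0 summit within 500 bp. The highest of all was at Cbfb (chromosome 8, 105170690, 16 bp inside the gene, score 146), which encodes the partner of the RUNX transcription factors. Its neighbours lay 165 bp (Day 8) to 217 bp (Day 4) away, with Day 12 at 174 bp. At Lactb (chromosome 9, 66975150, score 61.5), a mitochondrial protein gene, the 6 neighbours were at 140 to 156 bp. Next to Tpr, a nuclear pore gene, and the start of Odr4 (chromosome 1, 150393282, score 59.3) they were at 120 to 147 bp. At Armc5 (chromosome 7, 128238232, score 49.4) they were at 132 to 161 bp, and at the internal Sgk1 start, a serum-induced kinase gene (chromosome 10, 21994488, score 46.4), at 102 to 136 bp.

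The same pattern held at Gpatch2l (score 45.1, neighbours at 118 to 159 bp), Ppp4c, a phosphatase catalytic subunit (44.7, 105 to 159 bp), Gm40447 beside the start of Syne2 (43.6, 123 to 168 bp), Lyrm2 (33.4, 110 to 173 bp), Cacybp (33.1, 120 to 141 bp) and Phf14 (31.4, 139 to 177 bp). It held at the splicing factor gene Cdc5l (27.8, 151 to 159 bp), the mRNA cap methyltransferase gene Cmtr1 (26.5, 110 to 134 bp), Fam76a (26.4, 310 to 388 bp), Bcr (25.4, 121 to 202 bp) and Usf1, which encodes an E-box factor (25.1, 118 to 215 bp). At Iqgap1 (30.1), a scaffold protein gene, Day 8 was 119 bp and Day 12 512 bp away.

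A few of the highest-scoring sites were different. At Spi1 itself, the gene of PU.1, the site (chromosome 2, 91115353, score 53.4) lay inside the gene, 406 bp from its end of higher coordinate (91115759). The nearest annotated start was not that of Spi1 but that of Mybpc3 (position -2791 bp). There the nearest summits were those of Day 12- 8 at 131 bp and Day 12- 12 at 205 bp, Day 12 was 1902 bp away and Day 8 16887 bp. At Zc3h7a (57.2), an RNA-binding protein gene, only Day 12- 8, Day 12 and Day 8 lay near, at 129, 134 and 139 bp. At Clk3 (26.3), a kinase of splicing factors, the same 3 lists lay at 137, 180 and 162 bp. The site assigned to Alkbh8 (86.0) was 334971 bp outside that gene at chromosome 9, 3000260, with Day 12 at 203 bp. Trim71 (32.9) and Gbx1 (25.4), genes of early development and of a homeobox factor, had their nearest summit at 463 and 342 bp. Only Rora (25.7), a nuclear receptor gene, had none within 2 kb, the nearest being Day 8 at 5130 bp.

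Sites far from every other list were fewer. No other summit lay within 2 kb of 817 sites (25.5%), within 10 kb of 329, within 50 kb of 95 or within 100 kb of 35. The 817 had a median score of 7.94, and 51.7% (48.2 to 55.1) were at gene ends, against 61.6% of sites with a neighbour within 2 kb. The 5 sites farthest from other lists with scores of at least 5 were assigned to Kcna4, a potassium channel gene (316113 bp, score 10.3, 7 bp outside the gene end), the predicted gene Gm40862 (269063 bp, 5.28), Ptbp2, a splicing regulator (241381 bp, 16.4, itself 403323 bp outside the gene), the predicted gene Gm3005 (239193 bp, 5.27) and Ctnna2, a neuronal catenin (223675 bp, 5.999, 119 bp from the gene end). Of the isolated sites with the next scores after Rora, chosen after their values were seen, Hfm1, a meiotic helicase gene, had a score of 24.5 and the nearest summit at 23678 bp, Rras2 21.9 and 13018 bp, and Susd5 21.5 and 5625 bp.

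By genes, a day 0-only site lay in the body or within 10 kb of 3512 of 21883 protein-coding genes (16%), and one with no other summit within 2 kb for 788 (3.6%). Of the 3512 genes 2996 had 1 such site and 445 had 2. A Day 12 site in the same window was present for 91.7% of them and for 77.1% of all protein-coding genes, and 54 had a site of no other list. Arhgap23 and Begain, a postsynaptic protein gene, had 5 sites each. 13 genes had 4 sites each, among them 2700081O15Rik, Cux2 and Dmrta2, the last 2 encoding developmental transcription factors. Arhgap23 also had 37 Day 12 sites, and Dmrta2 had none.

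The score given for a gene below is that of its highest-scoring day 0-only site in this window. Of 37 genes of myeloid maturation 3 (8.11%) had one, a small count, against 16% of all genes. These were the Fc receptor gene Fcgr3 (score 12.2), the NADPH oxidase gene Ncf1 (8.23) and the protease gene Mmp9 (5.88). The Mmp9 site was 5028 bp outside the gene and nearer to Slc12a5. The 37 genes were shorter (median 10629 bp against 17170 bp over all genes), and the part of length was not tested. Another day 0 site was present at 8 of the 37, and at 25.1% of all genes. Day 12 sites stood at 35 of the 37. Of 23 myeloid transcription factor genes 7 (30.4%) had one. Beside Spi1 these included Irf8, an interferon-regulatory factor that partners PU.1, with a score of 18.9 at 26 bp from the gene end and the nearest other summit at 591 bp, Fosl2 (9.11, 151 bp) and Egr2 (8.62, 622 bp). None of the 7 genes had an isolated site. Another day 0 site was present at 13 of the 23 genes, against 25.1% of all genes.

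Of 24 stem cell and leukaemia genes 11 (45.8%, against 16% of all genes) had a day 0-only site and 4 an isolated one (3.6% of all genes). Their median length was 62066 bp against 17170 bp over all genes, and a longer gene offers more room for a site, whose part in the count was not tested. Erg, an ETS factor of stem cells, had a score of 17.0 with no other summit within 15196 bp. Hlf, a stem cell leucine zipper factor, had 14.2 with the nearest summit at 1202 bp and no Day 12 site in the window. Hoxa10 had 3 sites and Hoxa9 2, sharing the best of them (12.9, chromosome 6, 52234635), which was 4805 bp from any other list's summit. Of 17 ETS family genes 5 (29.4%, against 16%) had a site, among them Ets2 (17.8, nearest summit 115 bp), Elf1 (9.20, 307 bp), Fev (7.54, 134 bp) and Elf2 (5.78, 678 bp). Another day 0 site was present at 9 of these 17 and at 9 of the 24 stem cell and leukaemia genes, against 25.1% of all genes.

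Genes of general cell functions stood both above and below the 16% of all genes. Of 21 ribosomal and translation genes 7 had a day 0-only site, among them the initiation factor gene Eif3a (9.53) and the ribosomal protein genes Rpl7 (8.43) and Rpl22 (6.88), whose sites lay 8058 and 5199 bp outside the genes. Of 18 RNA processing genes 7 (38.9%) had one, including Hnrnpk (15.6), Sf3b1 (14.7), the helicase gene Ddx5 (11.6) and U2af2 (7.85). The Hnrnpk and U2af2 sites lay 6138 and 3971 bp outside the genes, nearer to 2210016F16Rik and Ccdc106. Chromatin regulators gave 5 of 20 (25%), including Ep300 (7.71), Dnmt1 (4.55, 8831 bp outside the gene and nearer to Eif3g) and Hdac2 (3.80). Their median length was 65433 bp against 17170 bp over all genes, and the part of length was not tested. Cell cycle genes gave 3 of 24 (12.5%), namely Rb1 (8.08), Cdk4 (6.81) and Mcm2 (5.91). The Cdk4 and Mcm2 sites lay 3855 and 8709 bp outside the genes, nearer to Marchf9 and Podxl2. Housekeeping genes gave 3 of 21 (14.3%; Aldoa 44.7, the site of the neighbouring Ppp4c, Cox4i1 7.86 and Ppia 7.57). The Cox4i1 and Ppia sites lay 475 and 2565 bp outside the genes. Another day 0 site was present at 9 of the 18 RNA processing genes and 11 of the 20 chromatin regulators, against 25.1% of all genes. It was present at 8 of the 21 ribosomal and translation, 8 of the 24 cell cycle and 8 of the 21 housekeeping genes.

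Lists for other lineages stood near the share over all genes (16%), apart from mast cell and basophil genes. B-lymphoid genes gave 2 of 12 (16.7%; Ebf1 8.46, Pax5 8.11), T-lymphoid genes 2 of 12 (16.7%; Zap70 5.999, Bcl11b 5.29), erythroid and megakaryocytic genes 2 of 12 (16.7%; the transferrin receptor gene Tfrc 12.1, the integrin gene Itga2b 8.48) and mast cell and basophil genes 0 of 10. The Itga2b site lay 5733 bp outside the gene and nearer to Fam171a2. Non-haematopoietic genes gave 4 of 20 (20%; Sftpc 12.5, Nefl 7.12, Pax6 6.62, Cdh1 6.41). The Sftpc site lay 595 bp outside the gene and nearer to Bmp1. Among gene families taken by symbol, splicing factors of the Srsf, Snrp and Hnrnp kinds gave 14 of 44 (31.8%, interval 18.6 to 47.6), and 45.5% of them had another day 0 site. Cytosolic ribosomal protein genes gave 17 (16.8%), mitochondrial ones 10 of 78, proteasome subunits 3 of 51 (5.88%) and Zfp zinc finger genes 57 of 397 (14.4%). Olfactory receptors gave 2 of 1110 (0.18%) and vomeronasal receptors 3 of 355.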

How the data were processed

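PU.1 ChIP-seq was deposited as 7 lists of peak summits, 1 base per peak, called with MACS2 on mm10, per the submitters' processing notes. The deposited score was read as the −log10 q-value, because the lowest score over all lists was 1.301 and a q-value of 0.05 gives 1.301. The aligner, control library, read filters, depth and whether samples were pooled are not given in the sources used here.

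Summits were joined by single linkage (100 bp) and sites classed by the lists calling them. Gene ends came from a RefSeq gene table (GRCm38.p6) without strand. Annotated starts, strand and 300-base windows came from a RefSeq promoter table (chromosome 18 not used here). The starts used belonged to 17468 of 21883 protein-coding genes. Of 273 genes in 14 lists 271 matched. Shares carry exact Clopper-Pearson 95% intervals. The merge, site classes and distances were tested on simulated data, and the interval code was not. Python 3.11.15, numpy 2.4.6, pandas 2.3.3, scipy 1.17.1 and matplotlib 3.10.9 were used.

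The sites and lists were chosen with earlier results of these data known. Named genes were those nearest to the 25 highest-scoring sites, the 4 of each list with the highest-scoring site in the body or within 10 kb, the 5 with most sites, those nearest to the 5 sites farthest from other lists at a score of at least 5, and those nearest to the 5 highest-scoring sites over 100 and up to 150 bp from another summit. Other genes were chosen after their values were seen. Some genes that the rule names are not reported here. Alternatives changed the linkage distance, score minimum, list length, gene-end distance and gene set, and left out each other list.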

Additional observations from a re-analysis of the deposited data

How the results depend on the processing

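The number of day 0-only sites stayed within 1.5 times of 3217 in 14 of 17 alternatives. It was 1544 with linkage at 500 bp, 926 at a day 0 score of at least 10 and 5012 with the other lists reduced to the length of the day 0 list. Leaving out each other list gave 3223 to 4559, the highest without the list titled Day 12- 8. The gene-end share of 59.0% stayed inside its interval in 13 of 23 alternatives. It was 61.1%, 55.7% and 49.6% with linkage at 50, 200 and 500 bp, 61.3% with reduced lists, 43.6%, 70.1% and 78.6% with ends within 500 bp, 2 kb and 5 kb, and 65.9% with all genes of the table. For sites with no other summit within 2 kb it was 51.7%, and with annotated starts 54.0%, both chosen after seeing the data. Leaving out a list gave 58.7% to 60.2%. With reduced lists the other day 0 sites stood at 62.6%, so the 2 sets then differed by less than in the main comparison.

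The share with a Day 12 summit within 2 kb (47.1%) was 54.1%, 38.5% and 24.9% with linkage at 50, 200 and 500 bp, 41.5% at a score of at least 10, 55.0% with reduced lists and 49.3% without sites that had another day 0-only site within 10 kb. The median distance (2632 bp) was 1339, 4877, 7927, 3591, 1234.5 and 2193 bp under the same settings. Leaving out a list gave 47.1% to 50% and 2000 to 2628 bp. Linkage distance moves both by construction. No paired analysis was possible because each state had 1 library and no result came from a test. Unknown depth and control limit every statement on a missing call.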

Other observations

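Several gene families with roles in development and excitable cells had day 0-only sites more often than the 16% of all protein-coding genes. These families were chosen after the values were seen, so their shares are descriptions. A site lay in the body or within 10 kb of 13 of 19 Wnt ligand genes (68.4%, exact interval 43.5 to 87.4), 17 of 26 voltage-gated calcium channel subunit genes (65.4%), 24 of 44 forkhead genes (54.5%), 10 of 19 Sox genes (52.6%), 19 of 39 Hox genes (48.7%, from 14 distinct sites), 23 of 49 genes of homeobox families such as Lhx, Nkx, Pax, Irx and Dlx (46.9%), 34 of 94 potassium channel genes (36.2%) and 25 of 92 cadherin and protocadherin genes (27.2%, from 14 distinct sites). Another day 0 site was present at 42.1% of the Wnt genes, 19.2% of the calcium channel genes, 15.8% of the Sox genes and 28.2% of the Hox genes, against 25.1% of all genes. The families also had sites called alone in the list titled Day 12- 8 more often than all genes (35.0%): 73.7% of Wnt, 61.5% of calcium channel, 57.9% of Sox and 89.7% of Hox genes. Median gene length over all genes was 17170 bp. It was longer for calcium channel (104352.5 bp), cadherin (96188 bp), potassium channel (32692 bp) and Wnt genes (22906 bp). It was shorter for Hox (3737 bp), Sox (4794 bp), forkhead (5193.5 bp) and the other homeobox genes (6325 bp). The part of gene length in these shares was not tested.

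The scores given here are of genes among the highest-scoring of each family, and other sites of these families scored lower. At Wnt6, for example, the sites scored 7.19 and 3.95, under the median of 7.66 of all day 0-only sites. Cacna2d1, a calcium channel subunit gene, had 22.4 at a site with the nearest other summit at 180 bp and the nearest Day 12 summit at 51156 bp. Wnt5b had 19.3, Sox13 16.7, Wnt3 16.5, Nkx1-1 16.1, Lhx5 14.0 and Hoxc13 12.4, the last with its nearest other summit at 5895 bp. These genes too were chosen after their values were seen.

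By chromosome, day 0-only sites were 59.0% of the day 0 sites on chromosome X (108 of them) and 53.0% on chromosome 12, and between 32.2% and 45.9% on chromosomes 1 to 11 and 13 to 19. Chromosome Y had 1 day 0 site, which was shared with another list.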
